A study of Homo sapiens with 12 samples.

Results

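The comparison described here is that of MDA-MB-231-ERβ cells exposed to TNFα with the same cells given vehicle, 3 RNA-seq libraries against 3, out of 12 libraries in the series. The members were taken by group label, and 11303 genes with RPKM (counts scaled to exon length in kilobases and to library size) of 1 or more in no fewer than 3 libraries were tested. MDA-MB-231 is an established triple negative breast cancer line, and this derivative carries ERβ as a doxycycline (dox) inducible transgene, so that every group is a model of 1 engineered line with ERβ switched on. The vehicle group received ethanol for 5 days and the TNFα group the same with 20 ng/ml TNFα for the final 3 h. The other 2 groups received 1 nM estradiol (E2) for 5 days, alone or with TNFα for the final 3 h (E2+TNFα), also with 3 libraries each. All cells were cultured with dox and the medium was refreshed on day 3, although the sample annotation of the E2+TNFα group does not name dox. Each group was plated as triplicate dishes of 1 line, so p-values measure the spread between dishes.

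TNFα is an inflammatory cytokine that binds TNF receptors and recruits TRADD, TRAF and cIAP adaptors. These activate the IκB kinases, which mark IκB proteins for degradation and release NFκB dimers such as p65/p50 to the nucleus. NFκB then switches on chemokines, cytokines, adhesion molecules and its own inhibitors, and the early part of this response is fast and self-limiting. MDA-MB-231 cells are known for high basal NFκB activity.

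The vehicle libraries held 35769865, 37522056 and 39943664 counts and the TNFα libraries 30499211, 30218099 and 19504540. The E2 libraries were shallower at 15755240, 7652016 and 11854054, and the E2+TNFα libraries held 16790200, 27101217 and 36729990. The 3 vehicle libraries stood apart from all others: the first principal component, with 68.7% of the variance, separated them from the 9 other libraries, whereas the TNFα libraries were separated on the second, with 19.6%. An RPKM of at least 1 was reached by 10845 to 10852 genes in vehicle libraries but by 9595 to 9795 in TNFα libraries. The count-weighted GC content of the exons was 51.5%, 50.6% and 50.8% in vehicle libraries and 54.1%, 53.5% and 53.8% in TNFα libraries, and it lay between 53.4% and 54.6% in the E2 and E2+TNFα libraries. In 3431 genes (30.4% of those tested) the vehicle libraries lay below all 9 others, and in 3978 (35.2%) above all 9. Fold changes against vehicle are therefore mostly given together with the value after the trends with exon GC content and length were removed from every library (the corrected fold change), and with the effect of TNFα in E2-treated cells, a contrast of E2+TNFα with E2 libraries. The spread behind its calls was estimated over all 12 libraries, vehicle included.

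Markers of the line were mostly as labelled, with exceptions. VIM (vimentin, a mesenchymal filament protein) was at 1527 to 1589 CPM (counts scaled to a common library size after TMM) in vehicle and 1042 to 1219 CPM in TNFα libraries. ESR2, the gene of ERβ, was at 486, 457 and 474 CPM in vehicle and at 282, 255 and 228 CPM in TNFα libraries, a difference of -0.89 on the log2 scale (SE 0.12, adjusted p = 5.6e-06), short of the fold threshold used below. After correction it was at -0.70 to -0.53 when 1 library was left out. In E2-treated cells ESR2 went the other way, from 322, 304 and 293 CPM to 433, 405 and 508 CPM with TNFα. Among the other markers of the line, ZEB1, a factor of the mesenchymal state, was at 19.9, 26.8 and 23.1 CPM in vehicle and 2.17, 1.93 and 2.29 CPM in TNFα libraries. It was at 0.478 to 1.92 CPM in E2 and 1.83 to 3.36 CPM in E2+TNFα libraries, so that the vehicle libraries stood alone. S100A4 was low in vehicle, at 1.16 to 1.57 CPM. Of 12 luminal and epithelial markers that should be absent or low, 9 were in the table, with a summed level of 909 to 1054 CPM in vehicle and 1323 to 1514 CPM in TNFα libraries. Most of it was the keratin KRT8, at 632 to 748 and 950 to 1109 CPM, while CDH1 (E-cadherin) was at 2.58 to 3.62 and 1.77 to 2.12 CPM. Of 12 leukocyte markers 4 were in the table, with a summed level of 90.6 to 97.2 CPM in vehicle and 97.1 to 111 CPM in TNFα libraries, nearly all of it CD68, and LYZ was at 0.0438 to 0.169 CPM in vehicle libraries. Of 12 fibroblast and endothelial markers 4 were in the table, with a summed level of 21.7 to 24.1 CPM in vehicle and 23 to 24.6 CPM in TNFα libraries.

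Because many of the genes below are known NFκB targets, the promoter windows of RefSeq (GRCh38.p14, 250 bases before to 50 after each start) were searched on both strands for GGG followed, after any 2 bases, by TTTCC, a form of the NFκB binding motif. It was present in 1.91% of 35116 windows, in 2.87% of 9028 tested genes with a window and in 11.7% of 247 response genes (members of the 13 pathway lists described below) with a window. The following 50 bases each are shown, as they lie on the strand of the gene, for members that move in different ways in the results. Each match to the motif or its reverse complement is in capitals.
NFKBIA, chr14:35404801-35404850, minus strand: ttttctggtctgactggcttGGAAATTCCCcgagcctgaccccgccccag
TNFAIP3, chr6:137867172-137867221, plus strand: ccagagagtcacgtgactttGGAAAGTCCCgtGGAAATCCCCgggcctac
CXCL1, chr4:73869294-73869343, plus strand: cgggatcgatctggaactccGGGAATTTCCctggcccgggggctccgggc
CXCL2, chr4:74099244-74099293, minus strand: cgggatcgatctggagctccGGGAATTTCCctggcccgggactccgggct
CXCL3, chr4:74038739-74038788, minus strand: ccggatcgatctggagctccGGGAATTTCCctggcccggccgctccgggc
IL6, chr7:22727107-22727156, plus strand: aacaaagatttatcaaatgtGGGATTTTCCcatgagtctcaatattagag
BIRC3, chr11:102317265-102317314, plus strand: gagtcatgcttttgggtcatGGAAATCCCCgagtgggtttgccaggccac
TNFAIP3 had 2 matches in the stretch shown. The CXCL1, CXCL2 and CXCL3 windows carried the same GGGAATTTCC 79 or 78 bases before the start. No match was found in the windows of TNF, ICAM1, CXCL8, IL1B, CSF2, IRF1 or TRAF1, which says only that these letters are not in those windows. A match is a description of the sequence and not a measured binding site.

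Relative to vehicle, 3016 of 11303 genes were significantly regulated (26.7%; log2 fold change of at least 1.5 in either direction, p under 0.05 and adjusted p of at most 0.1), 751 induced (6.64%) and 2265 repressed (20.0%). Without the fold threshold, 9257 genes (81.9%) passed. The CPM values of TNFα and vehicle libraries did not overlap in 9786 genes (86.6%), with TNFα higher in 4837 (42.8%) and lower in 4949 (43.8%). Set against all 9 other libraries, the TNFα libraries were above in 1148 genes (10.2%) and below in 798 (7.06%). After correction for GC content and length, 1179 genes passed all thresholds (10.4%), 552 induced (4.88%) and 627 repressed (5.55%). The same genes accounted for 292 of the induced and 480 of the repressed under both, while 386 of the 2265 repressed genes had a positive corrected fold change. In E2-treated cells TNFα regulated 46 genes (0.407%), 44 induced (0.389%) and 2 repressed (0.0177%). This count was 30, all induced, when the E2 and E2+TNFα libraries were fitted alone, 24 at a minimum of 10 counts in every library and 84 without E2 replicate 3. The 2 repressed genes were PPIAL4A and PPIAL4C, near-identical copies of each other among which reads can be split. After correction 49 genes passed there (0.434%), 47 induced (0.416%). With a factor of unwanted variation estimated from 28 housekeeping genes 54 passed there, 37 induced and 17 repressed. CPM values of library replicates 1, 2 and 3 are given in that order throughout.

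Of the 44 genes induced in E2-treated cells, 26 were also induced relative to vehicle, which is 59.1% of the 44 and 3.46% of the 751. The contrasted libraries are different, but both come from 1 fit that shares its estimate of the spread. A group of 24 genes was induced relative to vehicle, after correction, and in E2-treated cells, and 18 of the 24 belong to the pathway lists. Those lists hold 327 of the 11303 genes tested. They were chosen with earlier results of these data known, so the 18 are no independent support. In 18 of the 24 all 6 libraries with TNFα lay above all 6 without (0.761% of all genes tested), which the choice of these genes largely fixes. Of the 24, 21 kept the call relative to vehicle in all 6 fits that left out 1 vehicle or TNFα library, and TNFAIP3, CXCL2 and CD69 lost it in 2, 1 and 3 of them, with lowest values of 1.46, 1.47 and 1.47. In E2-treated cells 20 of the 24 were induced when those 6 libraries were fitted alone (all but BDKRB1, CCL2, CD69 and MEFV), and 18 to 22 when 1 of them was left out, with 18 without E2 replicate 1. There 23 were induced after correction, all but TNFRSF9, and 21 with a replicate block, all but BDKRB1, C11orf98 and CD69. At a minimum of 10 counts in every library only 15 of the 24 could be tested, and all 15 were induced in E2-treated cells. TNF, CCL2, CCL20, SERPINA3, MEFV, CD69, N4BP3, BDKRB1 and C11orf98 had too few counts for this. With a factor of unwanted variation estimated from 28 housekeeping genes, 21 of the 24 remained induced relative to vehicle, all but BDKRB1, C11orf98 and N4BP3. The same factor left 171 of the 292 genes induced and 156 of the 480 repressed under both. The 24 genes comprised cytokines (TNF, LTB, IL1B, IL6, CSF2), chemokines (CXCL2, CXCL3, CCL2, CCL20), signalling genes (TRAF1, TNFAIP3, IRF1), a receptor (TNFRSF9) and effectors (TNFAIP2, EFNA1, PTX3, BDKRB1, CD69), together with SERPINA3, ICOSLG, MEFV, PLPP3, N4BP3 and C11orf98. Of these, ICOSLG has a copy of 99.3% identity on chromosome 21, the exons of SERPINA3 lie wholly within those of another annotated gene on the same strand, and C11orf98 shares 70.0% of its exon bases with LBHD1, so that their counts are uncertain. The same holds for BDKRB1 and PLPP3, which share 28.9% and 17.4% of their exon bases with another annotated gene on the same strand.

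**Figure D1:**
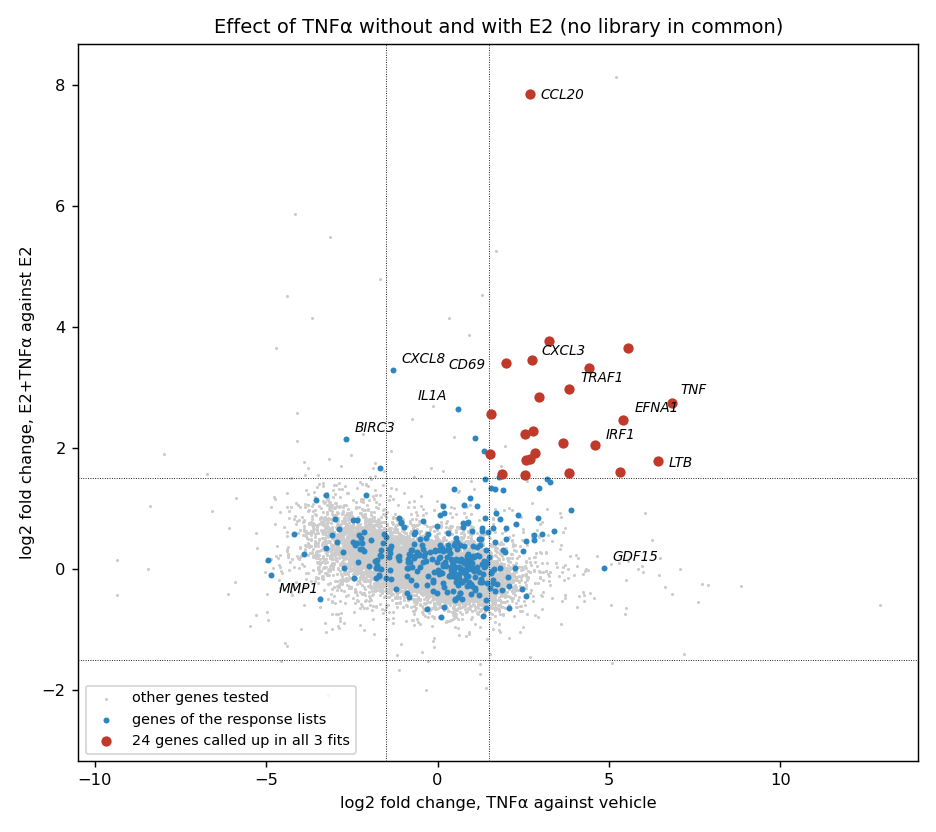
Each point is 1 of 11303 genes, with the log2 fold change of TNFα against vehicle on the x axis and that of E2+TNFα against E2 on the y axis. Dotted lines mark 1.5 in either direction. The 24 genes induced in both comparisons and, relative to vehicle, after GC and length correction (red) sit at the upper right, while BIRC3 and CXCL8 sit above 1.5 on the y axis and below 0 on the x axis. The y value of CCL20, at 0 counts in every E2 library, depends on the prior count of the fit and is no measured fold.

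TNF itself, the gene of the ligand that was added as protein (chr6:31575567-31578336, plus strand, hg38), had the largest induction among the cytokines. Its level was 0.363, 0.259 and 0.328 CPM in vehicle libraries, from 11 to 15 counts each, and 38.7, 37.4 and 34 CPM in TNFα libraries. The groups were far apart, with a log2 fold change of 6.84 (SE 0.27, adjusted p = 4.7e-11), or 6.20 after correction. In E2-treated cells TNF was at 1.85, 0.957 and 0.904 CPM and with TNFα at 9.83, 7.56 and 8.90 CPM, a log2 fold change of 2.74 (SE 0.26, adjusted p = 1.5e-05). The E2 levels rest on few counts, 27, 6 and 10. The effect was thus larger without E2, by 4.10 on the log2 scale (adjusted p = 7.0e-07) or 3.24 after correction.

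Among the genes of the TNF receptor signalling complex, 21 were tested, of which 2 were induced and 5 repressed (9.52% and 23.8%, near the 6.64% and 20.0% of all genes). After correction these were 2 and 0 (9.52% induced, against 4.88%). Their median log2 fold change was 0.50, against 0.01 for all genes, and 0.16 after correction. TRAF1, an NFκB-induced adaptor that binds TNF receptor 2 and cIAPs, was at 37.3, 36.4 and 34.8 CPM in vehicle and 544, 543 and 471 CPM in TNFα libraries. Its log2 fold change was 3.84 (SE 0.15, adjusted p = 4.7e-11), 3.31 after correction and 2.97 in E2-treated cells. BIRC3, the gene of cIAP2 and a classical NFκB target, moved the other way. It was at 58.5, 78.3 and 73.9 CPM in vehicle and 11, 12 and 10.1 CPM in TNFα libraries (log2 fold change -2.67, SE 0.36, adjusted p = 7.0e-06). After correction the value was -0.12 and with the housekeeping factor 1.07, and in E2-treated cells BIRC3 was induced, from 36.0, 21.8 and 22.4 CPM to 119, 191 and 49.1 CPM (log2 fold change 2.15, adjusted p = 0.0048). The exons of BIRC3 have a GC content of 36.2%. TRADD, the first adaptor on TNF receptor 1, was induced relative to vehicle (1.63) but was at 0.61 after correction and -0.18 in E2-treated cells.

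Of 11 NFκB subunits and IκB kinases, 2 were induced and 3 repressed relative to vehicle (18.2% and 27.3%, against 6.64% and 20.0% of all genes), and 0 and 2 after correction (18.2% repressed, against 5.55%). RELB, a subunit of the alternative pathway, was at 49.1, 43.2 and 44.6 CPM in vehicle and 145, 124 and 134 CPM in TNFα libraries. Its log2 fold change of 1.56 (SE 0.15, adjusted p = 3.1e-07) was 0.47 after correction and 1.33 in E2-treated cells (adjusted p = 0.00015). The order of the subunits was not the same on the 3 scales. RELA, which encodes p65, was at 0.79, -0.01 and -0.19 on the log2 scale relative to vehicle, after correction and in E2-treated cells. NFKB1, which encodes p105/p50, was at 0.79, 0.62 and 1.05 in the same order, and NFKB2 (p100/p52) at 0.55, -0.27 and 0.52. With the housekeeping factor RELA and NFKB2 were at -0.22 and -0.77. REL (c-Rel) was repressed relative to vehicle (-1.69), at 0.30 after correction, and induced in E2-treated cells (1.67). The kinases CHUK (IKKα) and TBK1 were repressed by 3.24 each relative to vehicle and by 1.59 and 1.82 after correction, and neither passed the test in E2-treated cells, at 0.35 (adjusted p = 0.63) and 1.22 (adjusted p = 0.10). With the housekeeping factor neither was repressed, at -0.14 and 0.12. In both genes the vehicle libraries were above all 9 others: CHUK was at 26.2 to 37.8 CPM in vehicle and at 2.55 to 7.73 CPM in the others.

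Among the feedback inhibitors of NFκB signalling, 6 of 19 were induced and 3 repressed (31.6% and 15.8%, against 6.64% and 20.0% of all genes), and 3 and 0 after correction (15.8% induced, against 4.88%). The median log2 fold change was 0.81, and 0.36 after correction. NFKBIA (IκBα, chr14:35401510-35404754, minus strand), which recaptures nuclear NFκB, was at 68.8, 71.2 and 73.1 CPM in vehicle and 356, 378 and 361 CPM in TNFα libraries. Its log2 fold change was 2.36 (SE 0.11, adjusted p = 3.5e-10) and 1.79 after correction. In E2-treated cells it was at 159, 142 and 149 CPM and with TNFα at 280, 245 and 305 CPM, without overlap but with a smaller log2 fold change of 0.88 (adjusted p = 0.00024). TNFAIP3 (A20), a ubiquitin-editing enzyme that dampens the receptor complex, was at 162, 195 and 183 CPM in vehicle and 492, 501 and 597 CPM in TNFα libraries (log2 fold change 1.55, SE 0.11, adjusted p = 2.7e-08). The value was 1.60 after correction and 2.57 in E2-treated cells. ZC3H12A (regnase-1, an RNase that degrades cytokine mRNA) rose from 42.1, 39.6 and 38.3 CPM to 285, 281 and 283 CPM, by 2.82 on the log2 scale and 2.30 after correction, and was at 0.56 in E2-treated cells, short of the fold threshold. NFKBIE, BCL3 and TNIP1 were induced only before correction. The repressed members CYLD, TAX1BP1 and ITCH lost the call after correction, at -0.43, -0.92 and -0.26.

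**Figure D2:**
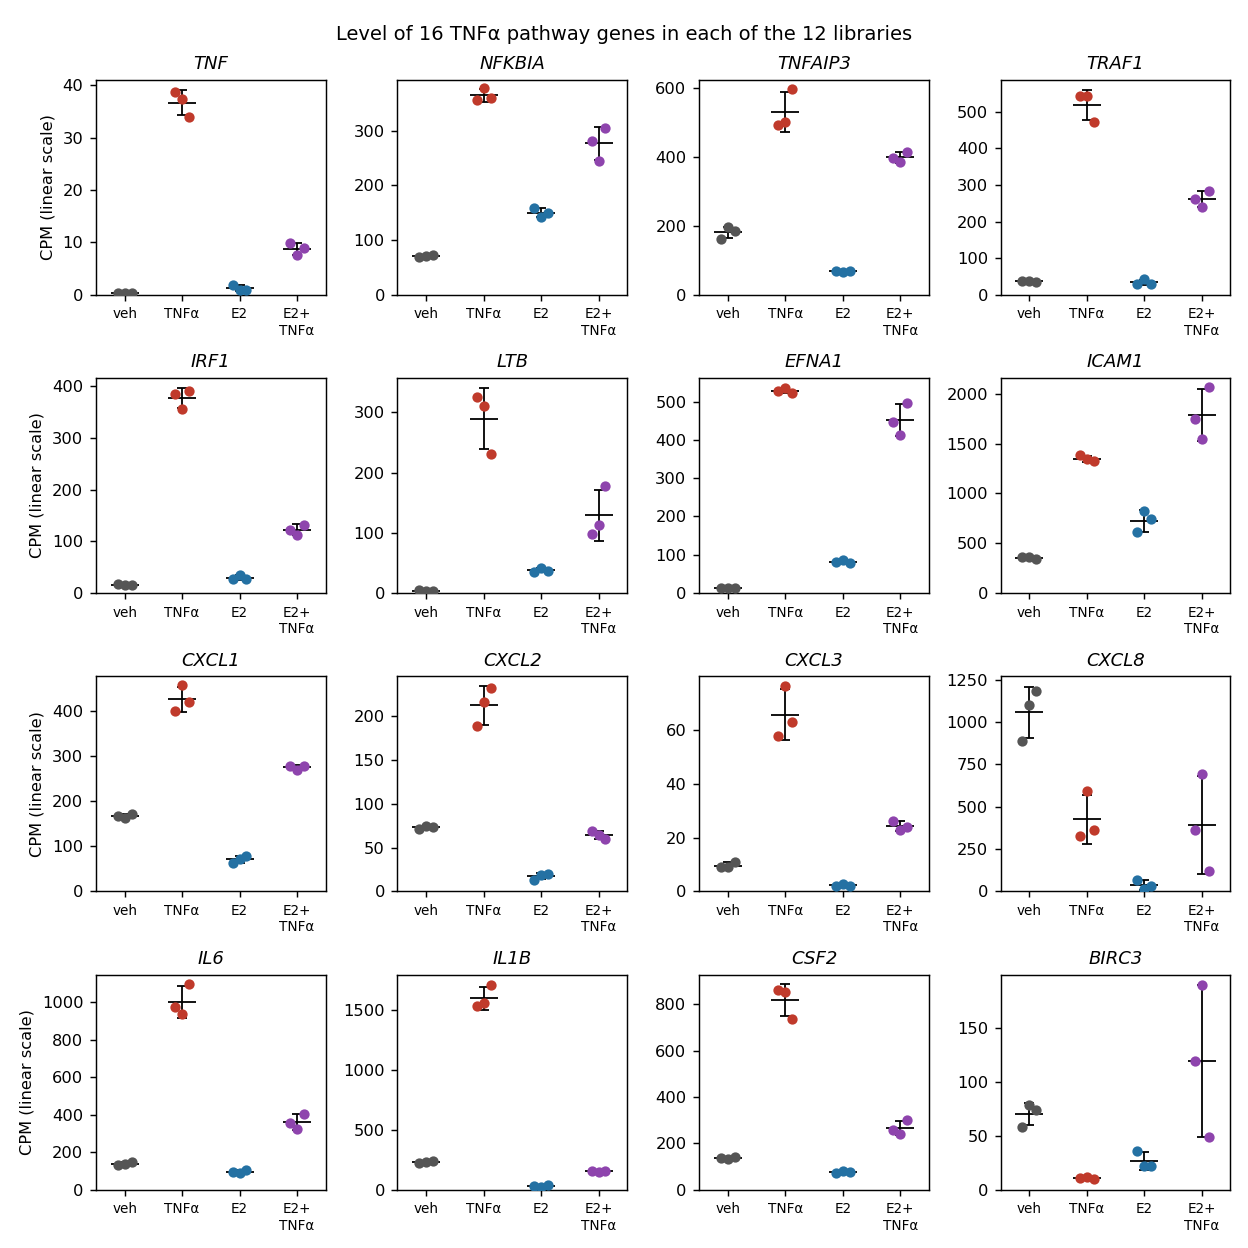
CPM (linear axis from 0) of 16 genes in each library, with 3 libraries per group and a bar and whiskers for the mean and SD. TNF, NFKBIA, TRAF1, IRF1, IL6 and CXCL1 are higher with TNFα both without and with E2, whereas BIRC3 and CXCL8 are highest in E2+TNFα or in vehicle libraries.

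Chemokines attract leukocytes, and the CXCL1, CXCL2, CXCL3 and CXCL8 proteins act on neutrophils. Of 12 chemokines tested, 4 were induced and 0 repressed relative to vehicle (33.3% induced, against 6.64% of all genes). After correction 6 of the 12 were induced and 2 of the 12 repressed, against 4.88% and 5.55% of all genes. In E2-treated cells 6 of the 12 were induced, against 0.389% of all genes. The median log2 fold change was 0.82, and 1.5 after correction and 1.38 in E2-treated cells. CXCL3 was at 8.88, 8.88 and 11.1 CPM in vehicle and 57.8, 76.2 and 62.8 CPM in TNFα libraries (log2 fold change 2.77, SE 0.16, adjusted p = 3.0e-09). In E2-treated cells it went from 1.98, 2.71 and 2.17 CPM to 26.2, 22.7 and 24.0 CPM (3.45). CXCL2 was induced by 1.53 relative to vehicle, with TNFα libraries at 189 to 233 CPM and vehicle libraries at 71.7 to 74.4 CPM, and by 1.91 both after correction and in E2-treated cells. CXCL1 was at 168, 163 and 171 CPM in vehicle and 400, 456 and 418 CPM in TNFα libraries, and its log2 fold change of 1.34 (SE 0.11, adjusted p = 6.0e-08) lay below the fold threshold. The value passed after correction (1.76) and in E2-treated cells (1.95).

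CXCL8, the gene of interleukin-8 (chr4:73740506-73743716, plus strand), had the lowest exon GC content of these chemokines, at 33.4%. It was at 889, 1103 and 1183 CPM in vehicle and lower, at 326, 592 and 362 CPM, in TNFα libraries, a log2 fold change of -1.31 (SE 0.51, adjusted p = 0.028). The corrected value had the opposite sign, 1.25 (adjusted p = 0.00048), as did that with the housekeeping factor, 4.77. In E2-treated cells CXCL8 was at 70.1, 13.9 and 33.7 CPM and with TNFα at 362, 696 and 119 CPM, without overlap, a log2 fold change of 3.29 (SE 0.56, adjusted p = 0.0063). CCL20, which attracts CCR6-bearing cells, was at 14 to 20 counts in vehicle and 39 to 103 counts in TNFα libraries (2.70, and 4.96 after correction), and went from 0 counts in every E2 library to 16 to 48 counts with TNFα. CCL2, a monocyte attractant, was at 1, 5 and 2 counts in vehicle and 48, 50 and 18 counts in TNFα libraries, so that its induction rests on few counts. CCL3 and CCL5 were repressed after correction, at -1.69 and -2.03.

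Cytokines and colony-stimulating factors made up the list with the largest share of induced genes relative to vehicle (42.9%), whereas chemokines had the larger share after correction (6 of 12 against 12 of 28) and in E2-treated cells (6 of 12 against 7 of 28). Of 28 tested, 12 were induced and 1 repressed (42.9% and 3.57%, against 6.64% and 20.0% of all genes). After correction 12 were induced and 0 repressed (42.9% induced, against 4.88%), with 9 induced under both. Across all genes, 0.389% were induced in E2-treated cells. The median log2 fold change of the list was 1.20, and 1.19 after correction. LTB (lymphotoxin β) rose from 4.23, 2.70 and 3.09 CPM to 325, 311 and 231 CPM, by 6.44 on the log2 scale (SE 0.26, adjusted p = 7.8e-11). Its effect in E2-treated cells was smaller, 1.78, from 35.5, 41.1 and 37.2 CPM to 98.2, 112 and 178 CPM. IL6, an inflammatory cytokine that signals through STAT3, was at 130, 138 and 147 CPM in vehicle and 975, 935 and 1096 CPM in TNFα libraries (log2 fold change 2.85, SE 0.12, adjusted p = 1.7e-10). It was at 3.5 after correction and 1.91 in E2-treated cells. IL1B rose from 225, 231 and 236 CPM to 1531, 1560 and 1711 CPM (2.79, SE 0.14, adjusted p = 5.5e-10), with 3.09 after correction and 2.28 in E2-treated cells. IL1A, its neighbour in function with an exon GC content of 40.1%, was at 149 to 169 CPM in vehicle and 197 to 301 CPM in TNFα libraries, a log2 fold change of 0.59 (adjusted p = 0.15), but passed after correction (2.23) and in E2-treated cells (2.64).

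The colony-stimulating factors, which drive growth of myeloid cells, were all induced relative to vehicle: CSF2 (GM-CSF) from 138, 135 and 139 CPM to 864, 852 and 739 CPM (2.58, SE 0.12, adjusted p = 2.6e-10), CSF1 by 3.29 and CSF3 by 3.20. The 3 genes also passed after correction, at 2.25, 2.72 and 2.37, but in E2-treated cells only CSF2 did, at 1.80. GDF15, a stress-induced member of the TGFβ family, was at 1.52, 0.987 and 0.832 CPM in vehicle and 31.2, 18.1 and 46.8 CPM in TNFα libraries (4.84, SE 0.45, adjusted p = 2.5e-07). It had 0 to 7 counts in each of the E2 and E2+TNFα libraries, and the effects differed (adjusted p = 0.013). With the housekeeping factor the direction turned, to -1.04 (SE 2.17). IL11 and LIF, members of the IL6 family, were induced by 1.57 and 1.90 relative to vehicle, but IL11 lost the call in 1 of the 6 fits without 1 library (1.24), and after correction they were at 0.83 and 1.30 and in E2-treated cells at -0.06 and 0.31.

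Adhesion, acute-phase and other NFκB effector genes numbered 49, of which 17 were induced and 5 repressed (34.7% and 10.2%, against 6.64% and 20.0% of all genes). After correction these were 14 and 2 (28.6% and 4.08%, against 4.88% and 5.55%). The median log2 fold change was 0.89, and 0.72 after correction and 0.52 in E2-treated cells. EFNA1, the ligand ephrin-A1, was at 11.9, 11.9 and 13 CPM in vehicle and 528, 535 and 522 CPM in TNFα libraries (5.42, SE 0.12, adjusted p = 1.8e-13), with 4.93 after correction and 2.47 in E2-treated cells. TNFAIP2, which is named for its induction by TNFα, rose from 132, 126 and 126 CPM to 1607, 1588 and 1633 CPM (3.65, and 2.94 after correction), and by 2.09 in E2-treated cells. PTX3, a soluble pattern recognition protein, rose by 2.55, 2.64 and 2.23 relative to vehicle, after correction and in E2-treated cells, with vehicle libraries at 60.6 to 67.2 CPM and TNFα libraries at 364 to 395 CPM. ICAM1, a leukocyte adhesion molecule, was at 366, 364 and 339 CPM in vehicle and 1384, 1342 and 1324 CPM in TNFα libraries (1.92, SE 0.14, adjusted p = 2.3e-08), and with 1.25 after correction and 1.30 in E2-treated cells fell short of the fold threshold in both. SOD2, a mitochondrial antioxidant enzyme, was at 0.15 (adjusted p = 0.32), 0.72 and 1.03.

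CEBPD, a transcription factor of the acute phase, rose by 3.90 relative to vehicle and 2.78 after correction, from 11.3, 6.79 and 8.05 CPM to 123, 131 and 138 CPM, and was at 0.98 in E2-treated cells, short of the fold threshold. PLAU (urokinase), SLPI (a protease inhibitor), ELF3 and SDC4 were induced by 2.80, 3.39, 3.06 and 2.93, and by 2.21, 2.87, 2.58 and 2.81 after correction, but were at 0.48, 0.63, 0.57 and 0.84 in E2-treated cells and did not pass there. The collagenase MMP1 and the stromelysin MMP3, both known NFκB and AP-1 targets, were repressed. MMP1 was at 453, 459 and 524 CPM in vehicle and 16.6, 16.7 and 16.7 CPM in TNFα libraries (-4.84, SE 0.22, adjusted p = 2.5e-10), or -3.96 after correction. It was at 10.4 to 21.5 CPM in the 6 E2 and E2+TNFα libraries, so that the vehicle libraries stood alone, and the effect in E2-treated cells was -0.10 (adjusted p = 0.83). MMP3 had the same pattern, at 95.5 to 106 CPM in vehicle and 2.71 to 4.27 CPM in all others.

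Of 33 cytokine and pattern receptors, 3 were induced and 6 repressed, and 3 and 1 after correction. The shares of 9.09% and 18.2% before correction were near those of all genes (6.64% and 20.0%). After correction they were 9.09% and 3.03%, against 4.88% and 5.55%. TNFRSF9 (4-1BB), a costimulatory TNF receptor family member, was at 5.37, 4.42 and 4.49 CPM in vehicle and 17.6, 18.5 and 16.8 CPM in TNFα libraries (1.89, SE 0.24, adjusted p = 4.0e-06), with 3.07 after correction and 1.57 in E2-treated cells. Its call in E2-treated cells was lost after correction, with the housekeeping factor, and without E2 replicate 1, E2 replicate 2 or E2+TNFα replicate 1. IL6R was repressed from 25.7, 27.4 and 25.3 CPM to 5.99, 4.73 and 6.97 CPM (-2.15), or -2.31 after correction. It was not repressed in E2-treated cells (0.61, adjusted p = 0.061), and the effects differed by -2.77 (adjusted p = 3.7e-07). IL6ST and LIFR, the signalling chains for IL6-type cytokines, were repressed only before correction (-3.08 and -3.54, against -0.26 and -1.07).

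Among 39 interferon regulatory factors and interferon-stimulated genes, 1 was induced and 8 repressed, and 3 and 2 after correction. The share repressed was near that of all genes, 20.5% against 20.0% and 5.13% against 5.55% after correction, and the median log2 fold change was 0.07. The induced gene was IRF1, a direct NFκB target, at 16.5, 14.9 and 15.9 CPM in vehicle and 386, 357 and 392 CPM in TNFα libraries (4.58, SE 0.14, adjusted p = 3.1e-12). It was at 4.13 after correction and rose by 2.05 in E2-treated cells, from 26.3, 34.6 and 28.1 CPM to 123, 112 and 133 CPM. The repressed genes included IFIT2 (-2.31), IFIT3 (-1.76) and PARP14 (-2.35), which were at -0.89, -1.12 and -1.09 after correction and lost the call. GBP2 and APOL6 were induced after correction only (2.62 and 2.40).

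Of 32 AP-1 and immediate early factors, 6 were induced and 4 repressed (18.8% and 12.5%, against 6.64% and 20.0% of all genes), and 2 and 5 after correction (6.25% and 15.6%, against 4.88% and 5.55%). None passed in E2-treated cells, where 0.407% of all genes did. JUNB, an AP-1 subunit, was at 47.6, 36.0 and 38.5 CPM in vehicle and 137, 117 and 147 CPM in TNFα libraries (1.72, SE 0.20, adjusted p = 2.2e-06), with 0.65 after correction, -0.07 with the housekeeping factor and 0.93 in E2-treated cells. JUND, FOSL1, IER2, KLF2 and MYC were likewise induced before correction only. ATF3, a stress-induced member of the same family, was at 0.64, 0.09 and 0.39. FOS was repressed, from 13.6, 14.3 and 14.5 CPM to 0.757, 0.848 and 0.676 CPM (-4.20), or -4.71 after correction, as were FOSB (-1.60, and -2.25 after correction), EGR1 (-2.42 and -3.06) and ID2 (-3.42 and -2.68). FOS was at 0.205 to 1.63 CPM in the E2 and E2+TNFα libraries, so that here too the vehicle libraries stood alone. ID2 has an intronless copy on chromosome 3 (1243 matching bases, 95.6% identity), and its reads can be placed at either. Of 18 DUSP and Sprouty genes, which restrain MAP kinases, DUSP5 was induced (2.25, and 1.53 after correction), from 94.8, 103 and 103 CPM to 460, 421 and 550 CPM, and SPRED1 was repressed before correction only. Each is 5.56% of the list, against 6.64% and 20.0% of all genes. DUSP5 was at 0.02 in E2-treated cells (adjusted p = 0.95), and the effects differed by 2.23 (adjusted p = 4.0e-07) and by 1.32 after correction, which is below the fold threshold.

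Apoptosis regulators were induced in 5 and repressed 5 of 22 cases (22.7% each, against 6.64% and 20.0% of all genes), and in 3 and 1 after correction (13.6% and 4.55%, against 4.88% and 5.55%). The 3 were BH3-only activators of cell death. BBC3 (PUMA) rose from 4.76, 4.35 and 4.99 CPM to 37.5, 33.7 and 39.4 CPM (2.97, SE 0.17, adjusted p = 3.3e-09), or 1.83 after correction, and was at 1.33 in E2-treated cells. BIK and BMF rose by 2.58 and 2.08, and by 1.85 and 1.60 after correction, with vehicle libraries below all others, and were at -0.45 and -0.64 in E2-treated cells, where neither passed. CASP4, an inflammatory caspase, was repressed from 98.1, 100 and 101 CPM to 15.9, 17.9 and 21.5 CPM (-2.44, and -1.77 after correction). Of 23 JAK-STAT and SOCS genes, PIM3 was induced and 4 repressed (4.35% and 17.4%, against 6.64% and 20.0% of all genes), none of which passed after correction, when only SOCS2 (1.60) did. Of 20 MHC class I and antigen processing genes, 1 was induced and 2 repressed, and 1 and 1 after correction, shares near or below those of all genes (6.64% and 20.0%, and 4.88% and 5.55%). HLA-G was induced (2.58, and 1.83 after correction) and PSME2, a proteasome activator, was repressed (-2.74, and -3.47 after correction), neither of which passed in E2-treated cells (0.46 and 0.02). Reads of HLA-G and PSME2 can be shared with paralogues or processed copies.

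**Figure D3:**
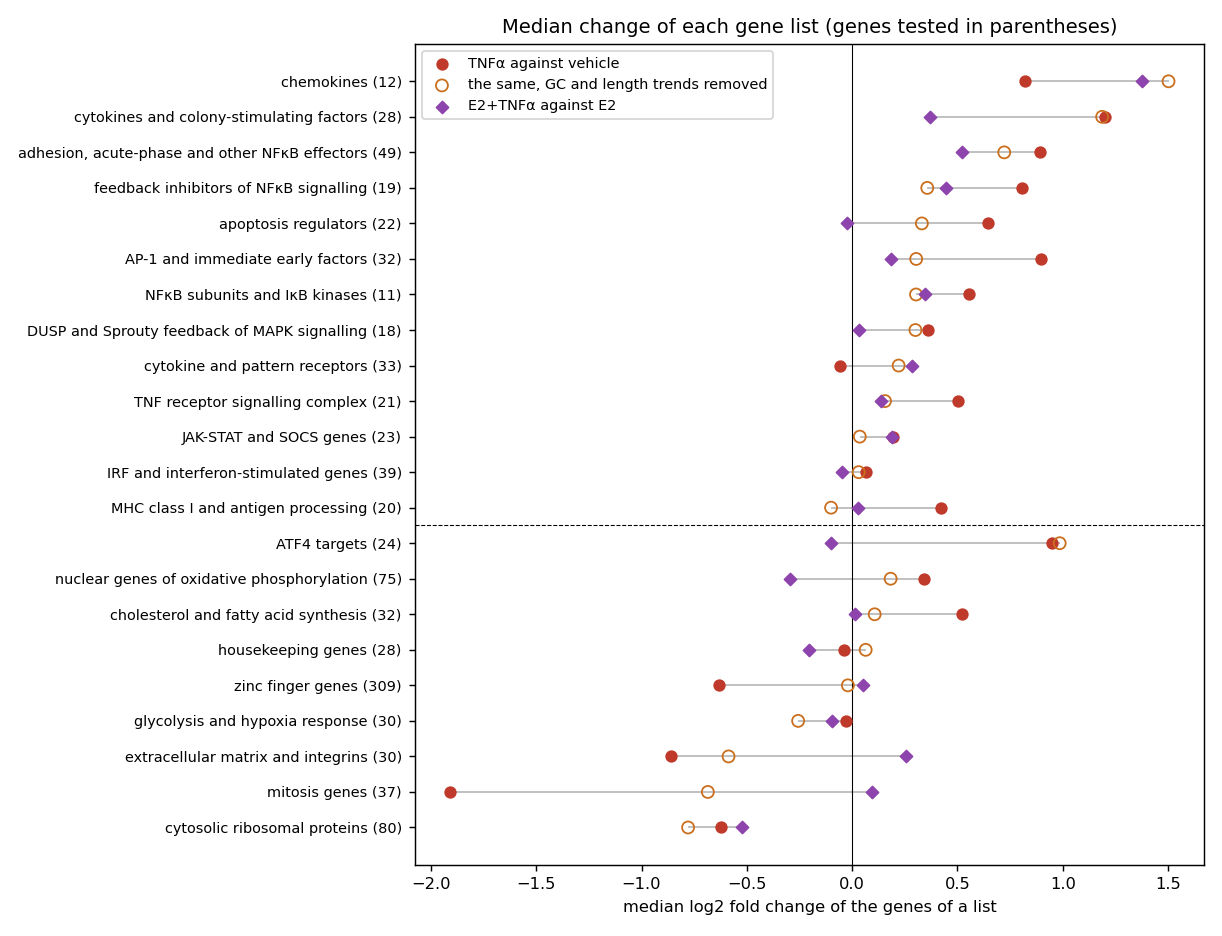
Median log2 fold change of each gene list relative to vehicle (filled circles), after GC and length correction (open circles) and in E2-treated cells (diamonds), with pathway lists above the dashed line and reference lists below it. Chemokines and cytokines have the highest corrected medians (1.5 and 1.19), and mitosis genes move from -1.91 to -0.69 on correction.

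Taken over the 13 pathway lists, 327 genes were tested, of which 61 were induced and 47 repressed relative to vehicle (18.7% and 14.4%, against 6.64% and 20.0% of all genes). With correction 51 were induced and 16 repressed (15.6% and 4.89%, against 4.88% and 5.55%), and in E2-treated cells 25 and 0 (7.65% induced, against 0.389%). The direction followed GC content before correction. In the fifth of all genes with the lowest exon GC content (up to 42.0%), 5 of 54 response genes were induced and 28 repressed, with a median log2 fold change of -1.60. In the fifth with the highest (from 59.0%), 20 of 64 were induced and 0 repressed, with a median of 1.12. After correction the same groups had 12 induced and 3 repressed (median 0.32) and 6 induced and 0 repressed (median 0.24). In E2-treated cells 7 of the 54 genes of low GC content and 2 of the 64 of high GC content were induced.

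The same dependence held over all genes tested, the 327 included. Among these 11303 genes, the median log2 fold change ran from -1.92 in the fifth of lowest GC content, with 21 genes induced and 1467 repressed, to 0.81 in the fifth of highest GC content, with 355 induced and 22 repressed. Spearman's rho of the fold change with GC content was 0.71 across 11303 genes and -0.31 with exon length, given as a description since genes share libraries. Each of the 9 libraries without vehicle had the trend when set against the vehicle mean, with rho between 0.60 and 0.74, also those that received no TNFα (0.61, 0.72 and 0.62 for E2). The TNFα effect in E2-treated cells had a rho of -0.33 with GC content and 0.46 with length. The part of these trends in any single fold change was not tested, and the treatment and the properties of the vehicle libraries cannot be told apart in this comparison.

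**Figure D4:**
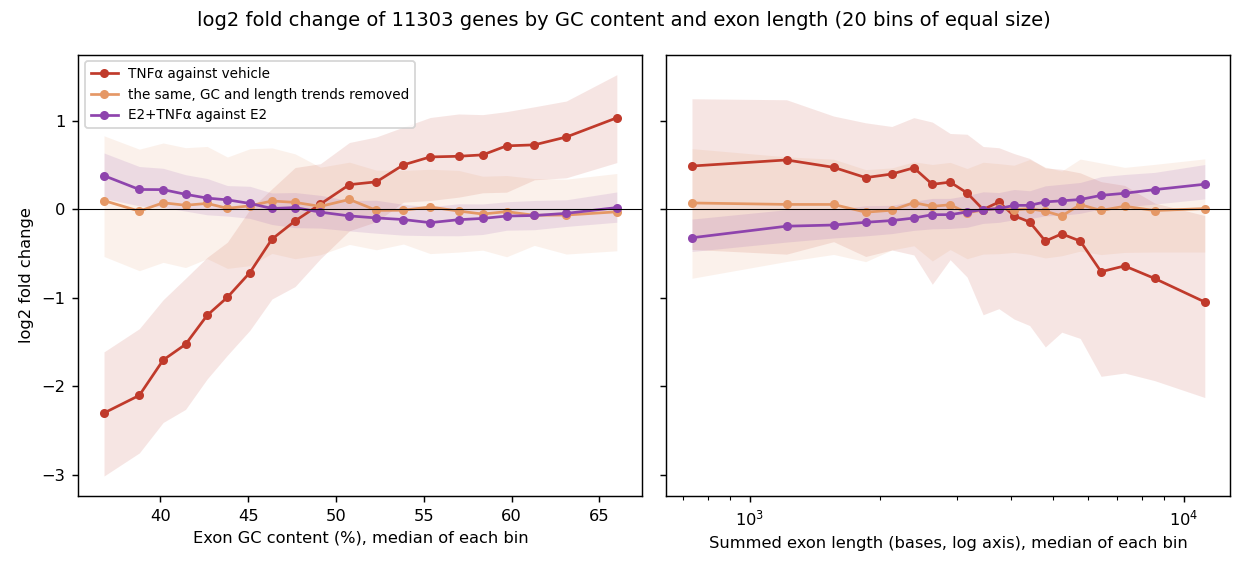
Median log2 fold change (lines) and interquartile range (bands) in 20 bins of genes of equal size, by exon GC content in percent (left) and by summed exon length in bases on a log axis (right). The line for TNFα against vehicle climbs with GC content and falls with length, that after correction stays near 0, and that for E2+TNFα against E2 is flatter and slopes the other way.

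Cell cycle and housekeeping lists were used as a reference. Of 37 mitosis genes, 20 were repressed and none induced relative to vehicle (median -1.91, against 20.0% of all genes repressed), among them the kinesin CENPE (-4.73), the kinases PLK4 (-4.05) and TTK (-4.03) and topoisomerase TOP2A (-3.17). Their median exon GC content was 42.6%, and after correction 5 remained repressed (PLK4, TTK, NUF2, CENPE and ANLN), at a median of -0.69. These 5 are 13.5% of the list, against 5.55% of all genes repressed after correction. In E2-treated cells none passed and the median was 0.09. Of 28 housekeeping genes 1 was repressed (TFRC) and none induced, with a median of -0.04. After correction 1 was repressed and 2 induced, none of them called alike before it. In E2-treated cells 6 of the 28 values were positive (median -0.21), against 51.2% of all genes. The median exon length of this list was 2368 bases, and the fifth of all genes from 2001 to 3026 bases had a median of -0.088 there. Of 309 zinc finger genes, 111 were repressed and 27 induced (35.9% and 8.74%, median -0.63), and 19 and 9 after correction (6.15% and 2.91%, median -0.02). Cholesterol synthesis (3 induced, 7 repressed of 32, or 9.38% and 21.9%) and glycolysis and hypoxia genes (1 induced, 4 repressed of 30, or 3.33% and 13.3%) had 0 and 1, and 1 and 2, such genes after correction, beside 6.64% and 20.0% of all genes before it. Of all genes, 4.88% were induced and 5.55% repressed after correction.

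The genes with the largest changes were mostly outside the pathway lists. Of the 12 largest inductions that passed under both fits, 2 were TNF and LTB and the other 10 were NHSL2, NACA2, EDARADD, OTOL1, GSPT2, ANP32C, FAM71D, ZNF534, CSNK1A1L and PANDAR. EDARADD (chr1:236394380-236484708, plus strand), an adaptor of the ectodysplasin receptor, was at 8.30, 7.36 and 8.05 CPM in vehicle and 1595, 1496 and 1525 CPM in TNFα libraries (7.60, SE 0.18, adjusted p = 1.8e-13). It was as high without TNFα in the E2 libraries, at 2330, 2892 and 2249 CPM. Of its exon bases, 43.2% overlap the processed pseudogene ENO1P1, and 1421 bases match the glycolytic gene ENO1's region of chromosome 1 at 92.3% identity. NHSL2 was at 0.263 to 0.580 CPM in vehicle and 92.8 to 186 CPM in the 9 other libraries, and overlaps the pseudogene TPT1P15 over 22.1% of its exon bases. All 10 had the vehicle libraries below the 9 others, and none passed in E2-treated cells.

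The 8 largest repressions that passed under both fits were MTRNR2L12, MTRNR2L8, GK, SCFD1, SARNP, TATDN1, MCTP1 and HSPA6, again with vehicle libraries apart from all 9 others and none passing in E2-treated cells. HSPA6, a heat-inducible chaperone, was at 66.0, 61.5 and 67.1 CPM in vehicle and 2.14, 1.96 and 1.82 CPM in TNFα libraries (-5.03, and -5.82 after correction). MTRNR2L12 and MTRNR2L8 are nuclear copies of mitochondrial ribosomal RNA sequence. A second genomic match of at least 200 bases at 90% identity or more existed for 12.9% of all genes tested, for 20 of the 50 largest inductions and 21 of the 50 largest repressions under both fits, and for 7.65% of the 327 response genes. Within the group of 24 induced genes, 1 had such a match. Reads can be placed at either copy, and the part of this in the fold changes was not tested. Without the 1460 genes that have a copy, 655 genes were induced and 1841 repressed of 9843.

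The TNFα effects without and with E2 differed for 3593 genes at the same thresholds (31.8%), 1050 upward (9.29%) and 2543 downward (22.5%), and for 1556 after correction (13.8%), 699 upward (6.18%) and 857 downward (7.58%). Within the group of 24 induced genes, the effect was larger without E2 both before and after correction in 5, TNF (4.10), LTB (4.66), EFNA1 (2.96), IRF1 (2.53) and SERPINA3 (3.73). It was larger without E2 before correction only in BDKRB1 and TNFAIP2, and after correction only in IL6 (0.95, and 1.65 after correction) and TNFRSF9. CCL20 had the opposite sign before correction, but its E2 libraries had no counts and the call was lost after correction (adjusted p = 0.22). For NFKBIA (1.48, and 0.67 after correction), CXCL3 (-0.68 and -0.54), IL1B (0.52 and 0.71), CSF2 (0.78 and 0.16) and TRAF1 (0.87 and 0.23) the difference was below the fold threshold under both. BIRC3 and CXCL8 had differences of -4.81 (adjusted p = 1.6e-06) and -4.60 (adjusted p = 7.6e-05), which were -1.66 and -1.61 after correction. Of the 2265 genes repressed relative to vehicle, 12 were induced in E2-treated cells (0.53%, near the 0.389% of all genes), REL and BIRC3 among them. A positive log2 fold change in E2-treated cells was found in 1848 of these 2265 genes (81.6%) and in 259 of the 751 induced (34.5%, median -0.13), against 51.2% of all genes.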

How the data were processed

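RNA-seq was performed by the authors with stranded mRNA libraries and 50 bp paired-end reads. Per the labels, reads were aligned with TopHat2 2.1.0 to hg38 and counted per gene with featureCounts, and the deposited values are raw counts per gene with summed exon lengths. The strand setting of the counting is not given in the sources used here, so reads of a gene and its antisense partner may not be separated. The authors' RUV batch correction, whose housekeeping genes are not named, is not in these counts. From the 12567 entries, 46 exact repeats and 70 that gave a locus a second symbol were dropped, leaving 12451, and a minimum RPKM of 1, reached in 3 libraries or more, kept 11303 for testing. The genome fitted: 99.79% of 12104 matched symbols overlapped their RefSeq gene on GRCh38.p14.

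edgeR 4.0.16 (TMM, quasi-likelihood F test, 2-sided, Benjamini-Hochberg adjustment over all genes) was fitted with 4 group means over all 12 libraries (R 4.3.3), and genes were called at an absolute log2 fold change of 1.5, p under 0.05 and adjusted p of at most 0.1. For correction, smooth trends (loess, span 0.3) with exon GC content and length were subtracted from each library as offsets. Levels are TMM-scaled CPM. Replicates of a group differed beyond counting noise. Copies were found with minimap2 2.31, with the limits of 200 bases and 90% chosen after seeing the data, as was the promoter motif. DESeq2 1.42.0 and the other alternatives are described with the limits, and the script was tested on simulated data. The compared groups, gene lists and members were chosen with earlier results of these data known, so no count over a list is independent support. Named genes were 26 chosen NFκB and control genes, up to 3 largest inductions and 2 largest repressions per pathway list and the 12 and 8 largest of all genes, among genes called alike with and without correction, without overlap between groups and with at least 1 CPM on average; other genes were named after their values were seen. Lists are NFκB subunits and IκB kinases, TNF receptor complex, feedback inhibitors, chemokines, cytokines, receptors, effectors, interferon genes, AP-1 factors, DUSP and Sprouty genes, apoptosis, JAK-STAT and MHC class I genes, with reference lists (mitosis, cholesterol, glycolysis, ATF4 targets, matrix, housekeeping, ribosomal proteins, oxidative phosphorylation, zinc fingers).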

Additional observations from a re-analysis of the deposited data

Results flagged for a closer look

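The effect of TNFα without E2 minus that with E2 passed the thresholds, in the same direction before and after correction, for 39 of the named genes, and before correction for 3593 of all genes tested. Differences are on the log2 scale. Among members of the pathway lists the effect was more positive without E2 for TNF (4.10), LTB (4.66), EFNA1 (2.96), IRF1 (2.53), CEBPD (2.92), ZC3H12A (2.26), the apoptosis regulators BIK (3.04) and BMF (2.72), and GDF15 (4.83), whose E2 and E2+TNFα libraries held 0 to 7 counts each. It was also more positive for SERPINA3 (3.73). TNF, LTB, EFNA1, IRF1 and SERPINA3 were induced in both settings, so that these differences are of size and not of direction. LTB and SERPINA3 lost the call in E2-treated cells without E2+TNFα replicate 3, and SERPINA3 also without E2 replicate 1. Without TNFα, the E2 libraries lay above the vehicle libraries in TNF (0.904 to 1.85 against 0.259 to 0.363 CPM), LTB (35.5 to 41.1 against 2.70 to 4.23 CPM) and EFNA1 (77.8 to 86.1 against 11.9 to 13 CPM). The part of the vehicle libraries in these differences was not tested.

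The effect was more negative without E2 for BIRC3 (-4.81), CXCL8 (-4.60), CHUK (-3.59), TBK1 (-4.46), IL6R (-2.77), MMP3 (-5.10), MMP1 (-4.74), DDX60 (-4.13), FOS (-4.78), ID2 (-2.93), CASP4 (-2.29) and PSME2 (-2.76). Of these, BIRC3 and CXCL8 were induced in E2-treated cells, and the other 10 did not pass there.

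Among the genes with the largest changes, the differences were 8.17 for NHSL2, 7.95 for NACA2, 8.15 for EDARADD, 8.59 for OTOL1, 7.27 for GSPT2, 6.93 for ANP32C, 6.31 for FAM71D, 6.58 for ZNF534, 5.13 for CSNK1A1L and 6.03 for PANDAR. They were -8.29 for MTRNR2L12, -6.74 for GK, -5.67 for SCFD1, -4.54 for SARNP, -5.88 for TATDN1, -5.61 for MCTP1 and -4.98 for HSPA6. In all 17 the 3 vehicle libraries lay apart from the 9 others.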

How the results depend on the processing

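The number of genes regulated relative to vehicle (3016) was within 1.5 times under DESeq2 size factors, library size only, no RPKM filter, a minimum of 10 counts, the length trend alone, DESeq2, the likelihood ratio test, a fit of the compared groups only, and a replicate block (3018). It was 888 with the factor from housekeeping genes (419 induced, 469 repressed), 1205 with the GC trend removed, 1179 with GC and length trends removed, and 1188 with the trends removed and the replicate block. Leaving out 1 library gave 2888 to 3221, and 1162 to 1254 with the trends removed, an alternative added after seeing the data. For the difference between TNFα effects (3593) these counts were 1133, 1651, 1556 and 1543, with 3257 to 3918 and 1523 to 1609 when a library was left out. The TNFα effect in E2-treated cells (46) gave 24 genes at a minimum of 10 counts, 30 with the compared groups only, 36 with the replicate block, and 32 to 84 when a library was left out, 84 without E2 replicate 3. The trend with GC content (0.71) was -0.245 with the housekeeping factor, 0.00040 and 0.65 with the GC or the length trend removed, -0.052 with both and -0.050 with both and the replicate block, and -0.055 to -0.045 or 0.69 to 0.72 when a library was left out. That with length (-0.31) was -0.30 without the filter, -0.34 at 10 counts, -0.19 with the housekeeping factor, -0.17 with the GC trend removed, 0.016 with the length trend removed, -0.00066 with both removed and -0.00057 with the replicate block as well, and -0.32 to -0.30 or -0.0022 to -0.00018 when a library was left out. These trends fall by construction when they are removed; the cause of the change with the housekeeping factor was not tested. Of 13 pathway lists, 10 to 13 had a median above that of all genes under every setting (12 as reported).

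The median log2 fold change of all genes moved to -0.19 with library size only, where 512 genes were induced and 2616 repressed, and to 0.15 with the length trend removed. Among named genes the sign changed with the housekeeping factor for BIRC3 (1.07), CXCL8 (4.77), NFKB2 (-0.77), RELA (-0.22), JUNB (-0.068), TBK1 (0.12), GDF15 (-1.04) and TATDN1 (0.27). It changed with the GC trend removed for CXCL8 (1.40) and NFKB2 (-0.25), with both trends removed for CXCL8 (1.25), NFKB2 (-0.27) and RELA (-0.013), and with the replicate block as well for the same genes (1.23, -0.27 and -0.013). With both trends removed and a library left out, CXCL8 was at 1.07 to 1.35, NFKB2 at -0.32 to -0.22, RELA at -0.047 to 0.021 and ATF3 at -0.093 to 0.23, and without correction at -1.63 to -1.15, 0.50 to 0.63, 0.75 to 0.84 and 0.46 to 0.78. SOD2 was at -0.047 with library size only and at -0.14 with the length trend removed. With the housekeeping factor a further 17 named genes lost the call and 1 gained it. Those that lost it include ICAM1 (1.01), LIF (0.95), IL11 (0.60) and RELB (0.46). Relative to vehicle, the replicate block alone changed no call among the 76 named genes. In E2-treated cells BDKRB1, C11orf98 and CD69 lost the call with this block. Same-numbered vehicle and TNFα libraries correlated at 0.33, 0.22 and -0.046 in their deviations from the group means, so the numbers were not taken as pairs. Depth limits the E2 libraries most, with 7652016 counts in replicate 2, and genes such as CCL2 and CD69 that rest on few counts.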

Other observations

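Reference groups outside the inflammatory response were counted in the same way, against 6.64% of all genes induced and 20.0% repressed, and 4.88% and 5.55% after correction. ATF4 targets, genes of amino acid supply that the integrated stress response switches on, were induced in 8 and repressed in 2 of 24 cases, and in 6 and 0 after correction (median log2 fold change 0.95, and 0.99 after correction). PHGDH, which opens serine synthesis, was at 3.81 and 3.08, NUPR1 at 3.19 and 2.34 and the glutathione-degrading enzyme CHAC1 at 2.70 and 1.81. Their median in E2-treated cells was -0.10, and none of the 24 passed there, where 0.407% of all genes did. Extracellular matrix and integrin genes were repressed in 6 and induced in 1 of 30 cases, a share repressed (20.0%) equal to that of all genes, and in 5 and 1 after correction (16.7% repressed), with COL7A1 (-1.57 and -2.16) and ITGB3 (-1.68 and -1.76) repressed under both and LAMA4 (3.19 and 3.98) induced under both. In E2-treated cells all 30 had a positive log2 fold change (51.2% of all genes did), with a median of 0.26. These genes are long (median 6383.5 exon bases), and the fifth of all genes with the longest exons had a median of 0.21 there.

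Cytosolic ribosomal protein genes were the reference list with the lowest corrected median. Of 80 tested, 25 were repressed and 1 induced, and 18 and 0 after correction (median -0.62, and -0.78 after correction), among them RPL7 (-4.97 and -5.57), RPS28 (-3.98 and -4.75) and RPS27 (-4.38 and -4.46). In E2-treated cells none passed, with a median of -0.52 and 2 of 80 values above 0, against 51.2% of all genes. They are short (median 888.5 exon bases), and the fifth of all genes with the shortest exons had a median of -0.21 there. These genes have many processed copies in the genome, and their reads can be placed at either. Of 75 nuclear genes of oxidative phosphorylation, 4 were induced and 5 repressed, and 7 and 2 after correction (median 0.34, and 0.18 after correction). In E2-treated cells 4 of the 75 values were above 0, against 51.2% of all genes, with a median of -0.30. These genes too are short (median 1059 exon bases) and lie around the fifth with the shortest exons, at -0.21 there. The part of length in these values was not tested.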
